A study of Mus musculus with 6 samples.

Results

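The cyclin-dependent kinase inhibitors are a family of 7 genes, Cdkn1a, Cdkn1b, Cdkn1c, Cdkn2a, Cdkn2b, Cdkn2c and Cdkn2d, chosen by name, and all 7 were measured among the 18194 genes of the arrays. They were represented by 9 probe sets, of which Cdkn1a and Cdkn1b had 2 each and the other genes 1 each. Gene expression had been measured on 6 Affymetrix arrays of mouse bone marrow cells that lacked lineage markers and carried cKit and Sca1, the LSK fraction that holds blood stem cells and early multipotent progenitors. The mice were 6 weeks old and of the genotype Hes1 GFP/WT, so that a GFP allele of Hes1, a Notch target gene that encodes a transcriptional repressor, was present in both groups. The GFP-positive group and the GFP-negative group had 3 arrays each, and in both groups replicate 1 was female and replicates 2 and 3 were male. The comparison asks how early progenitors with a signal from the Hes1 locus differ from those without one. Whether the 6 arrays stand for separate mice is not in the labels, although female and male arrays cannot share a mouse. The p-values therefore cover the spread among these samples, and part of that spread, as between replicates 2 and 3, may be technical.

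Cells enter the division cycle when D-type cyclins with Cdk4 or Cdk6, and then cyclin E with Cdk2, phosphorylate the Rb proteins and release E2F transcription factors. The INK4 proteins, from the Cdkn2 genes, bind Cdk4 and Cdk6 alone, while the Cip/Kip proteins, from the Cdkn1 genes, bind cyclin complexes more broadly. In blood stem cells, Cdkn1c and Cdkn1b are known for keeping cells at rest, Cdkn1a for the p53 response, Cdkn2c for limiting self-renewal and Cdkn2a for ageing and senescence.

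Levels are given as log2 of the deposited linear intensities. A fold change is the GFP-positive mean minus the GFP-negative mean on that scale. Hes1 itself was at 7.36, 7.09 and 7.84 in GFP-positive arrays and at 6.78, 6.79 and 7.10 in GFP-negative arrays, so the transcript did not fully separate the groups. Kit, which encodes the sorted receptor cKit, lay between 9.69 and 10.72 over all arrays, and Ly6a, which encodes Sca1, was not analysed here. As guides to background, 3 Y-linked genes lay between 3.42 and 4.69 in female arrays and Xist between 5.06 and 5.59 in male arrays, although background differs between probe sets.

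No inhibitor gene passed the test over all genes. By limma, 0 of 7 inhibitors and 0 of 18194 genes (0%) passed a threshold of 0.05 after adjustment, and the lowest adjusted p of any gene was 0.0956. At an unadjusted p under 0.05, 2 inhibitors, Cdkn2c and Cdkn1c, were higher in GFP-positive cells and 0 were lower, against 1221 of all genes (6.71%), 606 of them higher (3.33%). These 2 were also the inhibitors whose 3 GFP-positive arrays lay above all GFP-negative arrays, as in 1072 of all genes (5.89%). No inhibitor lay below in all 3, against 5.51% of all genes, and 11.4% of all genes had groups without overlap in either direction. With so few members, these counts do not set the family apart from the background. The median log2 fold change was 0.11 over the 7 inhibitors and 0.0077 over all genes.

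**Figure D1:**
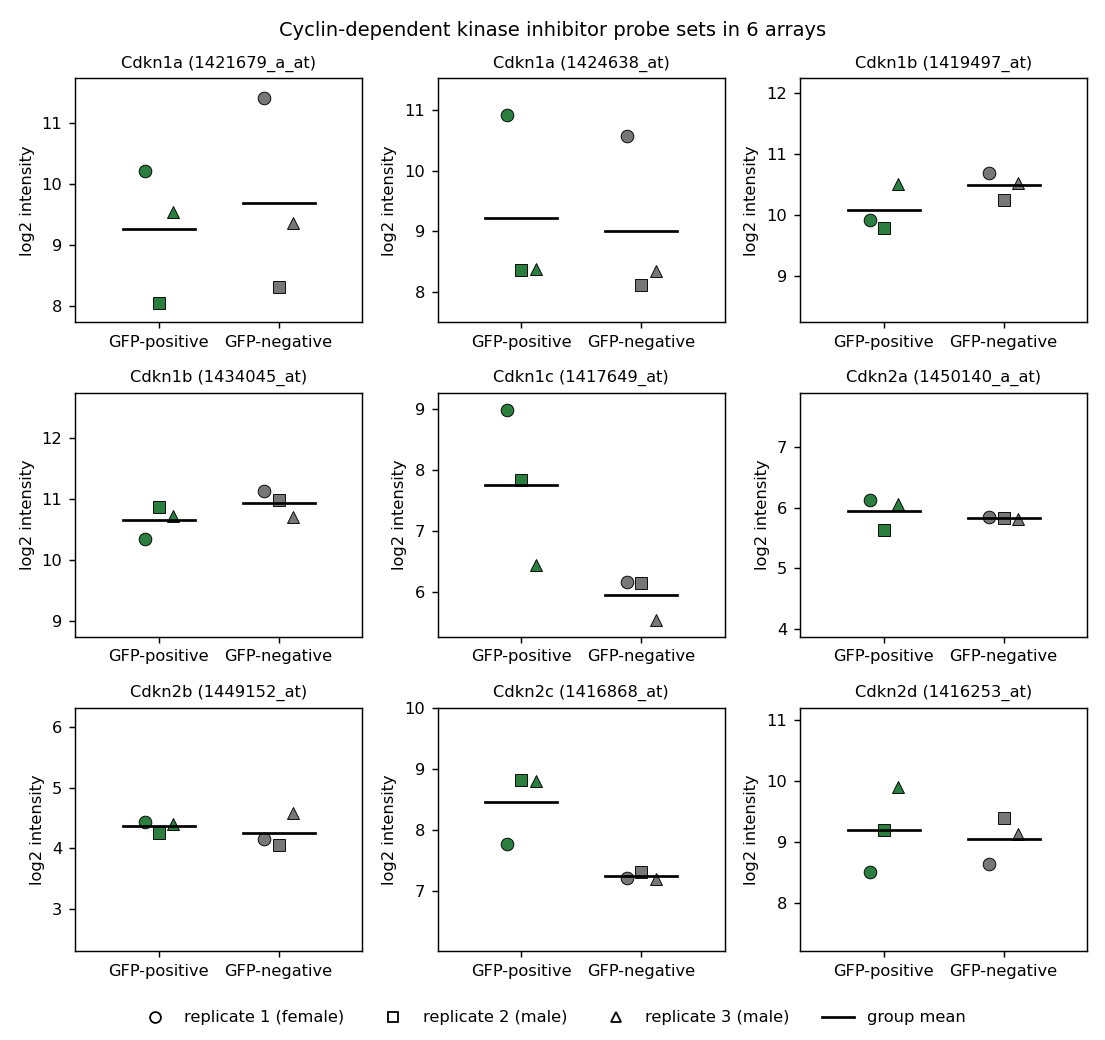
Log2 intensity (vertical axis) of the 9 inhibitor probe sets in GFP-positive arrays (green) and GFP-negative arrays (grey), with the marker shape giving the replicate number and the bar the group mean; every panel spans the same number of log2 units. The Cdkn2c and Cdkn1c points do not overlap between groups, and in both Cdkn1a panels the circles of replicate 1 stand highest in each group.

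The inhibitors' promoters are shown for the genes on which the results turn and which RefSeq's GRCm38.p6 table of windows, 250 bases before to 50 after each start, holds: Cdkn2c, with the smallest p of the family; Cdkn1b, since Hes1 is known to repress it; and Cdkn1a, a p53 target. In capitals stand matches on either strand to the N-box CACNAG and the class C site CACGCG, both bound by Hes proteins, to the E2F-like letters TTTNNCGC and to the paired cores of a p53 site, CATGNNNNNNCATG. The sequences read 5′ to 3′ along the gene.
Cdkn2c, chr4:109666707-109667006, minus strand: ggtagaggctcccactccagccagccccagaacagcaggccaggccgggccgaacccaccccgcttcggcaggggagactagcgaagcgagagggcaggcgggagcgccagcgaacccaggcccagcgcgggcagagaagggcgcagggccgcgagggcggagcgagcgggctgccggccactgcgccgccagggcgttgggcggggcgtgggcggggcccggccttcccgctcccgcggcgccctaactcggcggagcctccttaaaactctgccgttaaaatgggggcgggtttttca
Cdkn1b, chr6:134920151-134920450, plus strand: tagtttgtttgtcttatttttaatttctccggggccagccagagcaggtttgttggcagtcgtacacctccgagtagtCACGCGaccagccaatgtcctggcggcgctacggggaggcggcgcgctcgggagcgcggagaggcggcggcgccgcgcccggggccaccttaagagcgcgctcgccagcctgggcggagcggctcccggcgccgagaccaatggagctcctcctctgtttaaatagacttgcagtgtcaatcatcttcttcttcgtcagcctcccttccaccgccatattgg
Cdkn1a, chr17:29090729-29091028, plus strand: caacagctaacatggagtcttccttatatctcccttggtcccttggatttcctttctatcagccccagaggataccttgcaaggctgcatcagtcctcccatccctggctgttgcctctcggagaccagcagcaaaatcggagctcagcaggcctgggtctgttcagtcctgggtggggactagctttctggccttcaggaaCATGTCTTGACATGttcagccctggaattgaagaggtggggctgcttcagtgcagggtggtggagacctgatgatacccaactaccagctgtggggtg

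The Cdkn2c window shown, 1 of 2, held none of these 4 motifs, and 73.3% of its bases were G or C. The Cdkn1b window held 1 class C site, CACGCG, starting at position -172 from the gene's start. The Cdkn1a window shown, also 1 of 2, held the paired p53 cores, CATGTCTTGACATG, at position -48 from this start. The Cdkn1a window not shown, chr17:29093519-29093818, belongs to a start further downstream and held 1 N-box and 0 paired p53 cores. It held 23 CG pairs, against 2 in the window shown. Among all 32851 mouse windows the N-box was found in 42.5%, the class C site in 9.27%, the E2F-like letters in 5.17% and the paired p53 cores in 0.712%. Of the 9 windows of 6 inhibitors in the table, the N-box was in 2, the class C site in 3, the E2F-like letters in 2 and the p53 cores in 1, with no bases shared between motifs. The 2 windows of Cdkn2a both held E2F-like letters, and Cdkn2b's held none of the 4 motifs. A match is a string of letters in this window and does not show binding.

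Cdkn2c, which encodes p18Ink4c, had the smallest p of the family. It was at 7.77, 8.82 and 8.82 in GFP-positive arrays and at 7.21, 7.32 and 7.21 in GFP-negative arrays. The 3 GFP-negative arrays lay close together, while among the GFP-positive arrays the female replicate 1 was nearest to them. The means were 8.47 ± 0.60 in GFP-positive cells and 7.24 ± 0.06 in GFP-negative cells (SD, n = 3 each). This is a log2 fold change of 1.23 ± 0.31 (SE; 95% interval 0.46 to 2.00), or 2.34-fold on the linear scale, with an unadjusted p of 0.00804 and an adjusted p of 0.515 by limma. The two-sided exact permutation test gave p = 0.1, the smallest that 3 arrays against 3 allow.

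Within the female arrays of replicate 1 the Cdkn2c difference was 0.56, and within the male arrays it was 1.56. The test of the difference between the sexes, a sex by group interaction in limma, gave -0.995 ± 0.31 (female effect minus male effect ± SE, unadjusted p = 0.0341, adjusted p = 0.637), where 7.24% of all genes had an unadjusted p under 0.05. With 1 female array per group, the spread in this test came from the male arrays alone and the female arrays are assumed to vary like them, and sex cannot be told apart from replicate number 1. In the male arrays alone, 2 per group, Cdkn2c had an unadjusted p of 0.00108 (limma adjusted p = 0.307). Leaving out GFP-positive replicate 1 gave 1.57 (limma adjusted p = 0.138). Leaving out any other array gave values of 1.05 to 1.26.

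The genes whose profile over the 6 arrays was nearest to that of Cdkn2c were Nadk2, which encodes the mitochondrial NAD kinase, Art4, which encodes the Dombrock blood group protein of red cells, and Dsp, which encodes desmoplakin. The measure of likeness was the root mean square difference of log2 values centred on each gene's mean, and it was 0.10, 0.12 and 0.15 for these genes. Of the 4 Nadk2 probe sets 2 had the sign of the one used here. Dsp lay between 3.90 and 5.67, near the guides to background. Among 18194 genes and 6 arrays some profiles lie close together in any data, so these names are a description.

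Several lists of blood lineage markers also had summed intensities that did not overlap between the groups. The 7 erythroid markers measured of 8 had medians, relative to the GFP-negative mean, of 1.61, 1.96 and 1.60 in GFP-positive arrays and of 0.17, 0.003 and 0.22 in GFP-negative arrays. Their summed linear intensity ran from 5327 to 7448 in the GFP-positive arrays and from 972 to 1378 in the GFP-negative arrays. For 7 of 8 B and plasma cell markers the sums were 3358 to 3474 in the GFP-positive arrays and 1019 to 1669 in the GFP-negative arrays, and for 5 of 6 megakaryocyte markers they were 6242 to 7907 in the GFP-positive arrays and 1331 to 2808 in the GFP-negative arrays. For the 4 mast cell and basophil markers they were 1001 to 2051 in the GFP-positive arrays and 741 to 826 in the GFP-negative arrays. Of these 4, 3 had a positive fold change. The other, Ms4a2, named after its values were seen, had -1.37 ± 0.44 (log2 fold change ± SE; limma adjusted p = 0.618). All its GFP-positive arrays lay below, and 1 of its 2 probe sets had this sign. The sums overlapped for T and NK cell markers and for neutrophil markers, whose median log2 fold changes were 0.16 and 0.080. Within the GFP-positive arrays the B and plasma cell median was 2.16, 1.79 and 1.04, but the markers differed among themselves. Of the 7 measured, 2 were highest in GFP-positive replicate 1, the GFP-positive array in which Cdkn2c was lowest. The part of these markers in the Cdkn2c difference was not tested. In sorted populations, more cells with a transcript and more transcript per cell cannot be told apart.

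Cdkn1c, which encodes p57Kip2 and is expressed from the maternal chromosome, had the largest fold change of the family. It was at 8.98, 7.84 and 6.44 in GFP-positive arrays and at 6.16, 6.14 and 5.53 in GFP-negative arrays. GFP-positive replicate 1 stood highest and GFP-positive replicate 3 came close to the GFP-negative arrays, so the groups were separate by a small gap. The means were 7.75 ± 1.27 in GFP-positive cells and 5.94 ± 0.36 in GFP-negative cells (SD, n = 3 each). The log2 fold change was 1.81 ± 0.64 (SE; 95% interval 0.25 to 3.37), or 3.51-fold, with an unadjusted p of 0.0295 and an adjusted p of 0.667 by limma; the exact permutation p was 0.1. The GFP-negative level of Cdkn1c was close to the higher guide to background, which can understate a fold change.

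Endothelial and stromal markers stood apart in the same array in which Cdkn1c was highest. All 10 markers of that list were measured, and 9 of them were highest in GFP-positive replicate 1. Their medians relative to the GFP-negative mean were 2.88, 0.12 and 0.12 in GFP-positive replicates 1, 2 and 3 and lay between -0.09 and 0.05 in GFP-negative arrays. The summed linear intensity was 19690, 3099 and 1564 in the GFP-positive arrays and 2848, 1729 and 2591 in the GFP-negative arrays, and the sum of GFP-positive replicate 2 was also above that of each GFP-negative array. As for Cdkn1c, all GFP-positive arrays lay above all GFP-negative arrays for 3 of the 10 markers, against 5.89% of all genes. These were Cxcl12, Tie1 and Fabp4, which are named after their values were seen. Of the 10 markers, 8 had a positive fold change and 2 a negative one, the lowest at -0.56. Cxcl12, a chemokine of the marrow stroma, was at 12.52, 9.27 and 8.33 in GFP-positive arrays and at 5.34, 5.52 and 5.38 in GFP-negative arrays. Of its 3 probe sets 2 had this sign, and the lowest was at -0.005. Of 6 macrophage markers, all measured, the medians were 2.58, 2.03 and 1.20 in GFP-positive cells and -0.29, 0.36 and -0.09 in GFP-negative cells, with summed intensities of 3601, 5297 and 1415 in the GFP-positive arrays and 1389, 2567 and 1694 in the GFP-negative arrays. The part of these markers in the Cdkn1c difference was not tested. Without GFP-positive replicate 1, Cdkn1c had a log2 fold change of 1.20 (unadjusted p = 0.0562, limma adjusted p = 0.68). Without GFP-positive replicate 3 it was 2.47 (unadjusted p = 0.002, limma adjusted p = 0.37), and without any of the other 4 arrays it lay between 1.61 and 1.92 (lowest unadjusted p = 0.0548). Of all 6 omissions, only that of GFP-positive replicate 3 kept the unadjusted p of Cdkn1c under 0.05.

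The genes with the profile nearest to Cdkn1c were Timp3, an inhibitor of matrix metalloproteinases, Ibsp, which encodes bone sialoprotein, and Tgfb1i1, a focal adhesion protein, at root mean square differences of 0.28, 0.34 and 0.35. Timp3 was at 9.41, 7.85 and 7.38 in GFP-positive arrays and at 6.71, 6.58 and 5.84 in GFP-negative arrays. These genes were likewise highest in GFP-positive replicate 1. Kcnq1ot1, the noncoding RNA that silences Cdkn1c on the paternal chromosome, had a log2 fold change of -0.30 ± 0.38 (SE, limma adjusted p = 0.971). Only 1 of its 6 probe sets had this sign, the highest was at 0.49, and the gene was chosen after its values were seen.

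**Figure D2:**
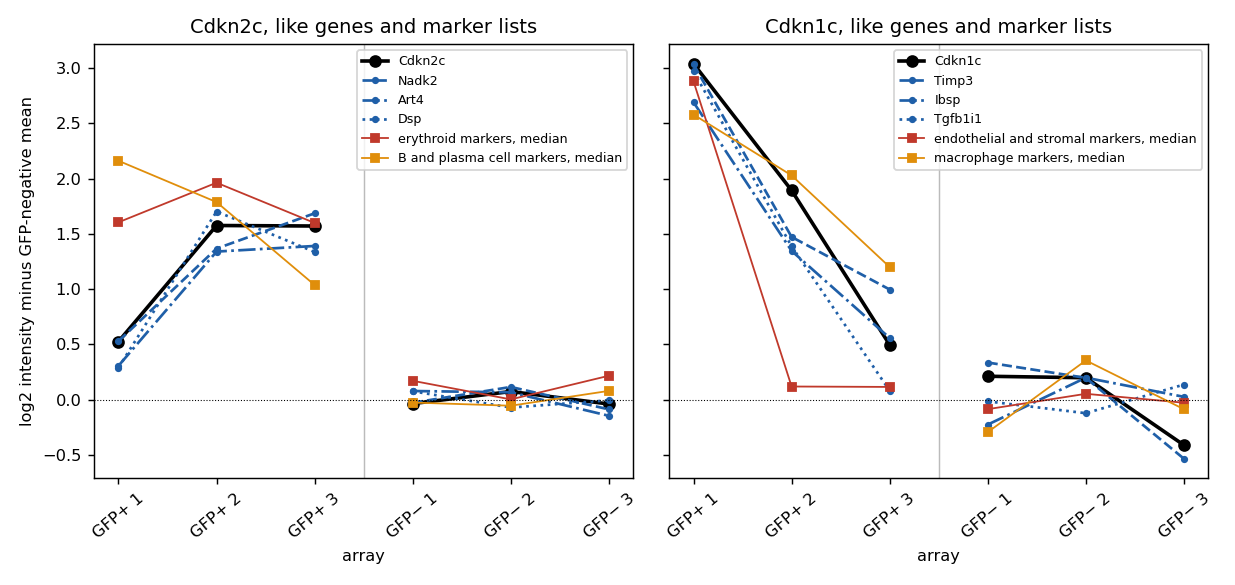
Log2 intensity minus the GFP-negative mean (vertical axis) in each GFP-positive and GFP-negative array (horizontal axis) for Cdkn2c (left, black) and Cdkn1c (right, black), the 3 genes of nearest profile (blue) and the medians of marker lists (red and orange); lines join values of 1 item within a group, and the order of replicates has no meaning. Cdkn2c was lowest of the GFP-positive arrays in replicate 1 and Cdkn1c was highest there, as was the endothelial and stromal median.

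For the other INK4 genes the groups overlapped. Cdkn2d, which encodes p19Ink4d, was at 8.51, 9.20 and 9.90 in GFP-positive arrays and at 8.63, 9.39 and 9.13 in GFP-negative arrays. The log2 fold change was 0.15 ± 0.40 (SE; 95% interval -0.82 to 1.12; limma adjusted p = 0.988). Its sign depended on single arrays, with -0.20 without GFP-positive replicate 3 and -0.06 without GFP-negative replicate 1. In each group the female array was the lowest for Cdkn2d.

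Cdkn2a, which encodes the INK4 protein p16Ink4a and, in another reading frame, the Mdm2 inhibitor p19Arf, was at 6.12, 5.63 and 6.06 in GFP-positive arrays and at 5.85, 5.83 and 5.81 in GFP-negative arrays. Its 1 probe set was not resolved here into the transcripts of these proteins, and its levels were close to the higher guide to background, which can understate a difference. The log2 fold change was 0.11 ± 0.18 (SE; 95% interval -0.33 to 0.55; limma adjusted p = 0.975). Cdkn2b, its neighbour, which encodes p15Ink4b, was at 4.43, 4.26 and 4.40 in GFP-positive arrays and at 4.15, 4.05 and 4.57 in GFP-negative arrays, within the range of the lower guide to background. Its log2 fold change was 0.11 ± 0.19 (SE; 95% interval -0.36 to 0.57; limma adjusted p = 0.978). At such levels a difference in Cdkn2b was not detectable. The flanking genes Mtap, of the methionine salvage pathway, and Dmrta1, a DM-domain gene, had log2 fold changes of 0.41 ± 0.43 and -0.17 ± 0.15 (SE, limma adjusted p = 0.962 for both), and 3 of 4 Mtap probe sets had this sign.

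Cdkn1b, which encodes p27Kip1, leaned the other way. Its brighter probe set, 1434045_at, was at 10.35, 10.88 and 10.72 in GFP-positive arrays and at 11.13, 10.98 and 10.71 in GFP-negative arrays, and the other, 1419497_at, at 9.92, 9.79 and 10.51 in GFP-positive cells and 10.69, 10.25 and 10.53 in GFP-negative cells. In both probe sets replicates 1 and 2 were lower in GFP-positive cells and replicate 3 was level. The log2 fold changes were -0.29 ± 0.21 (SE; 95% interval -0.80 to 0.22; limma adjusted p = 0.941) and -0.42 ± 0.25 (limma adjusted p = 0.94 over all probe sets). The difference was -0.78 within the female arrays and -0.05 within the male arrays in the brighter probe set, with 1 female array per group. These values do not show a change in Cdkn1b, and the interval still holds a lower level by 0.80.

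Cdkn1a, which encodes p21, did not separate by GFP but by replicate number. Its probe set 1424638_at was at 10.91, 8.37 and 8.39 in GFP-positive arrays and at 10.57, 8.12 and 8.36 in GFP-negative arrays. The brighter probe set, 1421679_a_at, was at 10.21, 8.05 and 9.54 in GFP-positive arrays and at 11.41, 8.30 and 9.35 in GFP-negative arrays. In both probe sets the 2 female arrays, replicate 1 of each group, lay above all 4 male arrays. The GFP log2 fold change was -0.42 ± 0.92 (SE; 95% interval -2.67 to 1.83; limma adjusted p = 0.982) in the brighter probe set and 0.20 ± 0.96 in the other (limma adjusted p = 0.992 over all probe sets), so the sign depended on the probe set. The spread of Cdkn1a within groups, 1.36 (pooled SD), was larger than that of 98% of all genes.

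The sex term of the fit with sex as a covariate gave, for Cdkn1a, 2.43 ± 0.17 in 1424638_at (log2, female minus male, ± SE; unadjusted p = 3.62e-05, limma adjusted p = 0.272 over all probe sets) and 2.00 ± 0.59 in 1421679_a_at (unadjusted p = 0.0204, limma adjusted p = 0.636). On the linear scale the first is 5.40-fold. Over all genes 6.9% had an unadjusted p under 0.05 for this term and 2 genes (0.011%) an adjusted p under 0.05. The exact permutation p was 0.0667 for both probe sets, the smallest that 2 arrays against 4 allow. This contrast was looked at after the values were seen. Sex cannot be told apart from what else replicate 1 shares, since both female arrays carry that number. Cdkn2d lay the other way, at -0.83 ± 0.27 (log2, female minus male, ± SE; unadjusted p = 0.0287, limma adjusted p = 0.652 over all probe sets), with both female arrays below all male arrays.

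Other genes were also high in the replicate 1 arrays. Egr1, an immediate early factor that can activate Cdkn1a, was at 12.30, 10.64 and 9.27 in GFP-positive arrays and at 12.59, 10.15 and 9.86 in GFP-negative arrays. Btg2, an antiproliferative p53 target, was at 9.41, 8.42 and 8.87 in GFP-positive cells and 10.40, 8.79 and 9.41 in GFP-negative cells, and both genes were chosen after their values were seen. The 7 neutrophil markers, all measured, had medians relative to the GFP-negative mean of 1.10, -0.54 and -0.19 in GFP-positive cells and 1.13, -0.63 and -0.53 in GFP-negative cells. Their summed intensity was 22001, 9188 and 8267 in the GFP-positive arrays and 11791, 7998 and 8185 in the GFP-negative arrays. Their part in the Cdkn1a values was not tested. Over the 15 measured genes of the Arf and p53 arm, the median log2 female minus male difference was 0.26. With an unadjusted p under 0.05 by limma, 1 was higher and 2 lower, where 6.9% of all genes passed. The 1 higher was Btg2 at 1.03, and the 2 lower were Trp53inp1 at -0.73 and Ccng1 at -0.82. These are named here after their values were seen.

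**Figure D3:**
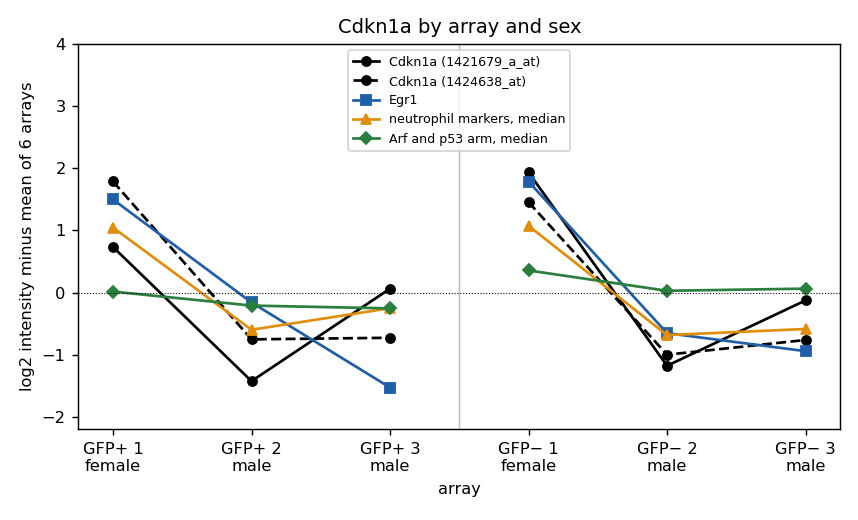
Log2 intensity minus the mean of the 6 arrays (vertical axis) in each GFP-positive and GFP-negative array (horizontal axis) for the 2 Cdkn1a probe sets (black), Egr1 (blue), the neutrophil marker median (orange) and the Arf and p53 arm median (green); lines join values of 1 item within a group. Cdkn1a, Egr1 and the neutrophil median are highest in the female replicate 1 array of each group.

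**Figure D4:**
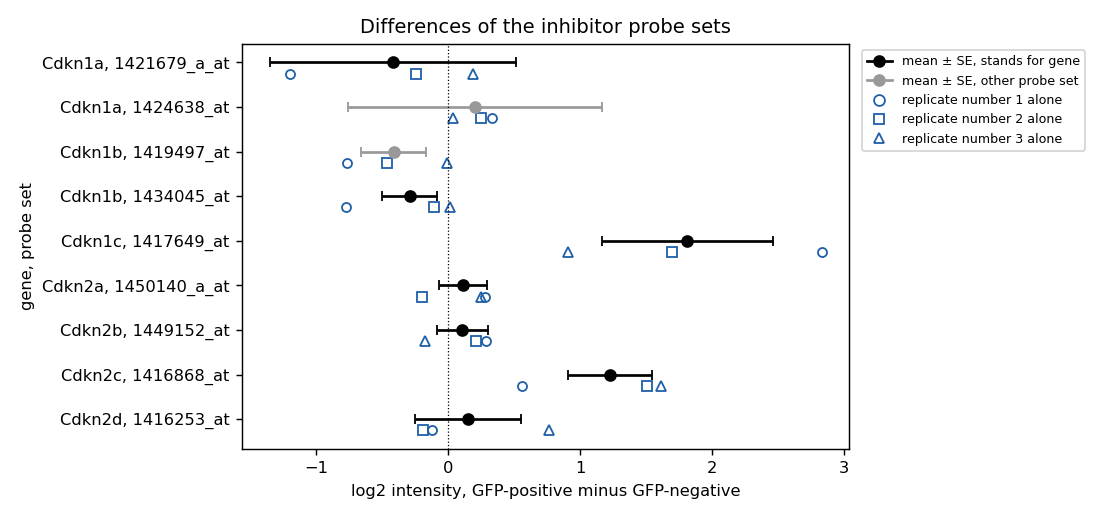
Log2 difference, GFP-positive minus GFP-negative (horizontal axis), of each inhibitor probe set: filled points with bars are the mean ± SE of limma across all probe sets, black for the probe set that stands for its gene, and open blue symbols are the differences within each replicate number. Cdkn1c and Cdkn2c are positive within all 3 replicate numbers, while the Cdkn1b values reach from -0.78 to 0.01.

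The inhibitors' partners and targets did not pass over all genes either: in each of the 8 pathway lists limma called 0 genes at an adjusted p under 0.05. Among 13 measured partner cyclins and kinases, 5 were higher and 2 lower with an unadjusted p under 0.05, against 3.33% higher and 3.38% lower over all genes, and the median was 0.35. That median was -0.041 with the mean of all probe sets of each gene and -0.086 without GFP-positive replicate 3. Ccnd2, a D cyclin and partner of the kinases that INK4 proteins bind, was at 10.89 ± 0.16 in GFP-positive cells and 11.59 ± 0.04 in GFP-negative cells (SD, n = 3 each; limma adjusted p = 0.423), and 5 of its 7 probe sets had this sign. Ccnd3, another D cyclin, lay the other way at 10.50 ± 0.20 in GFP-positive cells and 9.42 ± 0.42 in GFP-negative cells (limma adjusted p = 0.483), but only 1 of its 3 probe sets had this sign and the lowest was at -2.33. Ccne1, cyclin E of Cdk2, was at 9.19 ± 0.46 in GFP-positive cells and 8.02 ± 0.21 in GFP-negative cells (limma adjusted p = 0.457), with both probe sets of 1 sign. Of the kinases that INK4 proteins bind, both chosen after their values were seen, Cdk4 had a log2 fold change of -0.10 ± 0.17 and Cdk6 of -0.21 ± 0.14 (SE, limma adjusted p = 0.977 and 0.926).

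Among 13 Rb proteins and E2F factors, 2 were higher and 1 lower with an unadjusted p under 0.05, and the median was 0.26. E2f8, a repressive E2F of the dividing cell, was at 10.80 ± 0.40 in GFP-positive cells and 9.39 ± 0.56 in GFP-negative cells (SD, n = 3 each; limma adjusted p = 0.504). Rbl2, the Rb-like protein of resting cells, was at 9.12 ± 0.22 in GFP-positive cells and 9.58 ± 0.02 in GFP-negative cells, and Rbl1, its relative in dividing cells, at 9.18 ± 0.26 in GFP-positive cells and 8.43 ± 0.42 in GFP-negative cells (limma adjusted p = 0.667 for both). Of the 4 Rbl1 probe sets 3 had this sign. The 24 proliferation genes, all measured, had a median of 0.98, and 21 had a positive fold change. With an unadjusted p under 0.05, 10 were higher and 0 lower, against 3.33% higher and 3.38% lower over all genes. The list was not uniform. Its Mcm genes, Pcna, Cdc6 and Cdt1, which act in DNA replication, lay between -0.07 and 0.40. The mitotic genes Bub1b and Cenpe lay in that range too, at 0.32 and 0.31, with another Cenpe probe set at 2.52. Rrm2 and Tyms, of nucleotide synthesis, lay above it at 1.04 and 0.91, so the list did not divide by function. All of these genes are named after their values were seen. Aurka, a spindle kinase, had 2.63 ± 0.41, with its other probe set at 0.04, Cenpa, the centromeric histone, 1.11 ± 0.23, with 2 of 3 probe sets of that sign, and Plk1, a mitotic kinase, 2.35 ± 0.60 (log2 fold change ± SE; limma adjusted p = 0.254, 0.419 and 0.506). The proliferation median was 0.60 in GFP-negative replicate 1 against -0.26 and -0.28 in GFP-negative replicates 2 and 3, so Cdkn1a and proliferation genes were both high in that array.

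Other lists held genes that act on the inhibitor proteins or genes. Over all genes 3.33% were higher and 3.38% lower with an unadjusted p under 0.05, the background for each of these lists. Of 13 measured genes for turnover of Cip/Kip proteins, 4 were higher and 0 lower at that threshold, with a median of 0.15. Skp2, the ligase subunit that marks p27 for breakdown, was at 9.19 ± 0.13 in GFP-positive cells and 8.55 ± 0.21 in GFP-negative cells (SD, n = 3 each; limma adjusted p = 0.528), and 5 of its 6 probe sets had this sign. Cdc20, a subunit of the mitotic ligase, had 1.64 ± 0.46, and Rnf123, a ligase for p27 in the cytoplasm, 0.61 ± 0.20 (log2 fold change ± SE; limma adjusted p = 0.54 and 0.618). Of 18 transcriptional regulators of Cip/Kip genes 0 were higher and 1 lower with an unadjusted p under 0.05. This was Foxo3, an activator of Cdkn1b, at 11.88 ± 0.30 in GFP-positive cells and 12.62 ± 0.13 in GFP-negative cells (SD, n = 3 each; limma adjusted p = 0.528), with all 3 probe sets of 1 sign. Hes1 and Gfi1b, a transcriptional repressor that acts in erythroid and megakaryocyte development, followed at 0.54 ± 0.24 and 0.85 ± 0.40 (log2 fold change ± SE; limma adjusted p = 0.78 and 0.814).

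Of 16 repressors of the Cdkn2a-Cdkn2b locus 1 was higher and 0 lower with an unadjusted p under 0.05, with a median of 0.06. That count is near the share over all genes, 3.33% higher and 3.38% lower. Phc1, a Polycomb protein, was at 10.01 ± 0.19 in GFP-positive cells and 8.96 ± 0.39 in GFP-negative cells (SD, n = 3 each; limma adjusted p = 0.456). The methyltransferase gene Ezh2 had 0.71 ± 0.38 and Rnf2, a Polycomb ubiquitin ligase, -0.41 ± 0.29 (log2 fold change ± SE; limma adjusted p = 0.861 and 0.941), with 3 of 5 Rnf2 probe sets of that sign. In the Arf and p53 arm 0 of 15 measured genes had an unadjusted p under 0.05, the median was -0.20, and Sesn2, Trp53inp1 and Zmat3 had the smallest p, at log2 fold changes of -0.35, -0.55 and 0.50, with 1 of 2 Trp53inp1 probe sets of that sign. Of 8 genes with names like those of the inhibitors, but outside the family, 0 had an unadjusted p under 0.05. Cdk5rap2, a centrosome protein, was at 0.69 ± 0.28, Cdkn3, a phosphatase of Cdk2, at 1.42 ± 0.59 and Cdk2ap1, a Cdk2-binding protein, at -0.14 ± 0.15 (log2 fold change ± SE; limma adjusted p = 0.751, 0.752 and 0.966), with 2 of 3 Cdk2ap1 probe sets of that sign.

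**Figure D5:**
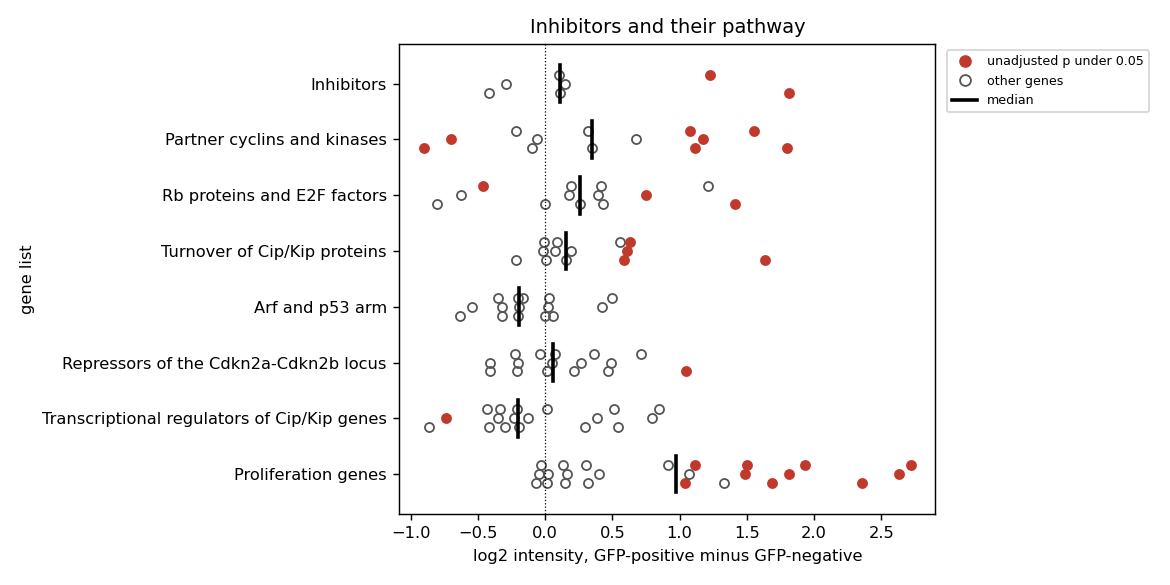
Log2 difference, GFP-positive minus GFP-negative (horizontal axis), of each measured gene in the inhibitor family and 7 pathway lists (rows); red points had an unadjusted p under 0.05 and black bars are medians. The inhibitors' median is 0.11, that of the proliferation genes 0.98, and no point passed an adjusted p of 0.05.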

How the data were processed

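Total RNA (5 ng) of sorted cells was amplified, converted to cDNA and biotin-labelled for Affymetrix arrays, per the labels' protocols. The authors deposited 1 linear intensity per probe set and array for 45101 probe sets, with array medians between 74.0 and 78.5. The submitters' processing notes name RMA without a version or settings. RMA removes shifts shared by most genes and shrinks differences near background.

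Log2 was taken with no pseudocount. The platform's annotation gave 34958 probe sets 1 gene symbol, 932 several and 9211 none here. Only those with 1 symbol were used, and the probe set with the highest mean stood for its gene, which left 18194 genes. Groups were compared with limma 3.58.1 (R 4.3.3; lmFit, eBayes, no covariate), with Benjamini-Hochberg adjustment over all genes and a threshold of 0.05. Probe sets were fitted likewise over all 45101. Exact permutation tests were two-sided. The fit was checked on simulated data. The number of arrays limits the precision.

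The members, gene lists and tests were chosen with earlier results of these data known. The rule named all inhibitors, the 3 genes of smallest p in each pathway list, the 3 nearest profiles of 2 inhibitors, Hes1 and the genes flanking Cdkn2a and Cdkn2b, and the text marks other genes, except Kit and Xist, which served as checks. Trp53, Bax, Ccnb1, Skp1a and Cdt2 of the pathway lists, and some genes of the marker lists, among them Ly6a and Ddx3y, were not analysed here. Alternatives were other probe set rules, filters at the 40th and 60th percentile, variance priors, array weights, renewed normalization, sex or the replicate number as a term, the males alone, other thresholds and leaving out arrays. Figures were drawn with matplotlib 3.10.9.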

Additional observations from a re-analysis of the deposited data

How the results depend on the processing

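All 16 alternatives for Cdkn2c kept its sign and an unadjusted p under 0.05, with log2 fold changes of 1.05 to 1.57 (limma adjusted p 0.138 to 0.784). All 16 for Cdkn1c kept its sign at 1.20 to 2.47, and 9 kept an unadjusted p under 0.05 (limma adjusted p 0.37 to 0.926). Cdkn1a turned to 0.20 in its other probe set and ranged from -1.11 to 0.44 as arrays were left out, at 0.19 without GFP-positive replicate 2 and 0.44 without GFP-negative replicate 1. Cdkn2d ranged from -0.20 to 0.50, at -0.20 without GFP-positive replicate 3 and -0.06 without GFP-negative replicate 1. Cdkn1b, Cdkn2a and Cdkn2b kept their signs.

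At an adjusted p under 0.1 limma called 0 inhibitors and 1 gene in all, and at an unadjusted p under 0.05 it called 2 inhibitors and 1221 genes. At an adjusted p under 0.05 the count of all genes was 1 with genes under the 40th percentile left out, 2 under the 60th, and 0 to 5 as arrays were left out, where the 5 came without GFP-positive replicate 3. The count of inhibitors with an unadjusted p under 0.05 was 1 with array weights, 1 in the males alone and 1 to 2 without single arrays. Among all 18194 genes the counts in these fits were 1419, 1391 and 1004 to 1368. The 60th percentile filter removed Cdkn2c and Cdkn1c, so it gave 0 inhibitors, and 653 of all genes.

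With the mean of all probe sets, list medians were -0.041 for partner cyclins and kinases, -0.044 for repressors of the Cdkn2a-Cdkn2b locus and -0.086 for transcriptional regulators of Cip/Kip genes. Array weights gave 0.11 for Rb proteins and E2F factors and -0.10 for transcriptional regulators. The males alone gave 0.31 for turnover of Cip/Kip proteins, -0.032 for the Arf and p53 arm and 0.0062 for transcriptional regulators. Leaving out arrays moved partner cyclins and kinases between -0.086 and 0.66, repressors of the locus between 0.016 and 0.15, and transcriptional regulators between -0.18 and 0.076. The cause of these shifts was not tested.

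Same-numbered arrays deviated together with correlations across genes of 0.12, 0.05 and 0.09, each array being closest to its own number, a hint from the data and not the design. The 0.12 is that of the 2 female arrays, so shared sex cannot be told apart from a shared number there. Deviations were taken from each group's mean, so the correlations are not independent of each other. With the replicate block limma called 0 inhibitors and 0 genes at an adjusted p under 0.05, Cdkn2c had an adjusted p of 0.499, and no call of an inhibitor changed. Depth does not apply to arrays; Cdkn2a, Cdkn2b and, in GFP-negative cells, Cdkn1c were limited by signal near background.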
